A study of Mus musculus with 8 samples.

Results

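The unfolded protein response genes described here are 10 genes chosen by name for their place in the response: *Hspa5*, *Hsp90b1*, *Sdf2l1*, *Dnajb9*, *Dnajc3*, *Herpud1*, *Xbp1*, *Atf6*, *Atf4* and *Ddit3*. Earlier results of these data were known when these genes were chosen. They are 10 of the 18183 genes with a probe set annotated only to them, and 26 probe sets read them. Bone marrow-derived macrophages (BMDM) of C57Bl/6 mice were compared by microarray in 4 groups of 2 arrays, from 2 *miR-155*-/- and 2 WT donors. Thawed bone marrow was grown into macrophages in medium conditioned by L929 cells, a source of the growth factor M-CSF. The *miR-155*-/-(LPS + IL-10) and WT(LPS + IL-10) cells received IL-10 (20 ng/ml) 5 min before LPS (100 ng/ml), and the *miR-155*-/-(LPS) and WT(LPS) cells received LPS (100 ng/ml) alone, each for 24 h. Every group was thus stimulated with LPS, a bacterial cell wall component, and no unstimulated array was among them. By the labels the *miR-155*-/- animals were male and the WT animals female, so that genotype and sex cannot be told apart. The knockout was in the whole animal, and each donor gave 1 array for each stimulation. The p-values thus rest on 2 donors a genotype, with 1 estimate of the spread for each probe set shared by the 4 groups.

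The unfolded protein response is set off when unfolded proteins build up in the endoplasmic reticulum (ER). The sensors IRE1, PERK and ATF6 in the ER membrane then start separate arms. IRE1 splices the *Xbp1* mRNA, cleaved ATF6 enters the nucleus, and both raise chaperones and degradation factors of the ER. PERK phosphorylates eIF2α, which slows translation and raises ATF4 protein, and ATF4 in turn induces CHOP, the product of *Ddit3*. In macrophages, TLR signalling is known to engage IRE1 and XBP1 and so ties the response to inflammation. Much of this control lies in splicing, cleavage and translation, which an array of mRNA levels does not read.

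Some of the genes have known promoter elements, which are shown because ATF6 and XBP1 are known to act on chaperone genes through them. The ER stress element (ERSE), bound by NF-Y together with ATF6 or XBP1, is CCAAT and CCACG with 9 bases between. In the RefSeq promoters of GRCm38.p6, from 250 bases before to 50 after the start of transcription and searched on both strands, it was found in 39 of 32851 windows (0.119%). Of the members, 9 had a promoter in the table, and 3 of the 9 held an ERSE, as did 7 of 39 other pathway genes. ERSE-II, which is ATTGG and CCACG with 1 base between, was found in 12 windows (0.0365%), among them that of *Herpud1*. TGACGTGG, an element that XBP1 binds, was in 222 windows (0.676%) and in 0 of the 9, and TGATGNAAT (N is any base), an element that ATF4 binds, in 317 windows (0.965%) and in 0 of the 9. Each run is given with 4 bases on either side, with the motif in capitals. A match is only a match of letters.
Hspa5, chr2:34772021-34772047, plus strand, 65 bases before the start: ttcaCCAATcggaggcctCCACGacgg
Hsp90b1, chr10:86705634-86705660, minus strand, 212 bases before the start: aagcCCAATcgcaaggagCCACGcttc
Hsp90b1, chr10:86705529-86705555, plus strand and against the gene, 107 bases before the start: ctcaCCAATcgtgcctcaCCACGcact
Dnajc3, chr14:118937823-118937849, plus strand, 105 bases before the start: acaaCCAATcagcgccaaCCACGaccc
Herpud1, chr8:94386373-94386391, plus strand, 52 bases before the start: gctgATTGGgCCACGttgg

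The RNA that the knockout animals lack is printed to identify it, with its seed (bases 2 to 8) in capitals. The microRNA miR-155-5p lies at chr16:84714143-84714165 on the plus strand.
miR-155-5p: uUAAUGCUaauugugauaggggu

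*Mir155hg*, the host transcript of miR-155, had log2 values of 1.70 and 2.00 in *miR-155*-/-(LPS + IL-10), then 2.14 and 2.19 in *miR-155*-/-(LPS), then 2.31 and 2.01 in WT(LPS + IL-10) and lastly 2.73 and 4.02 in WT(LPS). It was highest in the WT(LPS) arrays, but nearly all of these values lie about the lower quartile of an array (2.25 to 2.32), so that the check of the labels is weak. All values below are log2 intensities that the authors normalised by RMA, for the brightest probe set of each gene, and a difference of log2 values is a log2 fold change. Medians of the arrays lay between 3.88 and 3.97. The 8 macrophage markers measured included *Adgre1*, *Csf1r* and *Cd68*, with values of 12.37 or more on every array, and 0 of the 8 passed the test in any comparison. *Mertk* and *Itgam* were dimmer and varied most. *Mertk* had 8.52 and 8.03 in *miR-155*-/-(LPS), against 9.06 and 9.37 in WT(LPS). *Itgam* had 9.28 and 9.49 in *miR-155*-/-(LPS + IL-10), against 8.45 and 8.92 in *miR-155*-/-(LPS). Stromal markers stood apart on both arrays of WT donor 1, where 10 of 11 had their highest value and their summed linear signal was 12982 with LPS + IL-10 and 12807 with LPS, against 139 to 649 on the other 6 arrays. The exception, *Lum*, had its highest value in *miR-155*-/-(LPS). Results of called genes that use WT donor 1 are also given without it because of this signal, and most other results are not.

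In *miR-155*-/-(LPS) compared with WT(LPS), the comparison that asks what the loss of miR-155 changes in inflammatory macrophages, chaperones and cochaperones of the ER had lower values and *Ddit3* a higher one, but *Dnajc3* alone passed the test. *Dnajc3* encodes P58IPK, a cochaperone of BiP in the ER lumen. Its log2 values were 9.76 and 10.05 in *miR-155*-/-(LPS), against 11.10 and 10.87 in WT(LPS). Both knockout arrays thus lay below both WT arrays, and below the remaining arrays as well. The log2 fold change was -1.08 ± 0.16 (SE), or 2.11-fold lower, with an adjusted p of 0.0304 from limma (donor as a random block, Benjamini-Hochberg over 45014 probe sets). With both arrays of WT donor 1 left out, it was -0.96 with an adjusted p of 0.141, where the lone WT(LPS) array was assumed to vary like the other groups. With any 1 array left out the adjusted p from limma lay between 0.0541 and 0.199, and with the replicate number as a fixed block it was 0.0608. All 5 probe sets of *Dnajc3* were lower, by log2 fold changes of -1.12 to -0.35, and 3 of the 5 passed the test. In bulk RNA, fewer cells of a type and less RNA per cell cannot be told apart.

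**Figure D1:**
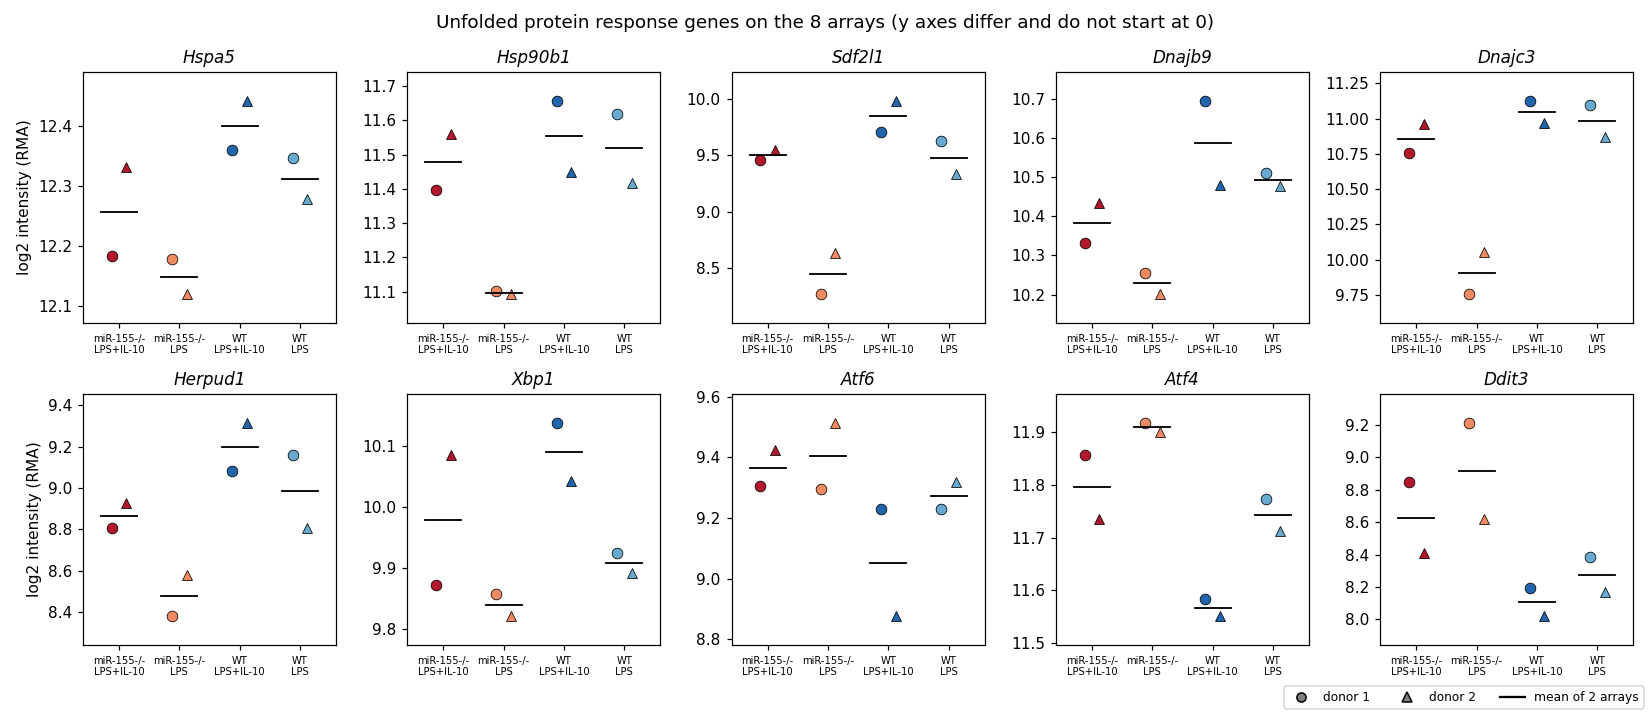
Log2 intensity (y axis, RMA) of each of the 10 genes on the 8 arrays, with groups on the x axis in the order *miR-155*-/-(LPS + IL-10), *miR-155*-/-(LPS), WT(LPS + IL-10) and WT(LPS). Symbols mark donors and lines the mean of 2 arrays. *Dnajc3* and *Sdf2l1* had their 2 lowest values in *miR-155*-/-(LPS), where *Ddit3* and *Atf4* had their highest value.

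*Sdf2l1*, which encodes a partner of BiP and of ER J-domain proteins, showed the next largest difference. It had 8.27 and 8.63 in *miR-155*-/-(LPS), against 9.63 and 9.33 in WT(LPS). The knockout arrays were again the 2 lowest of the 8. Its log2 fold change was -1.03 ± 0.19 (SE), and the adjusted p of 0.0599 from limma just missed the threshold. That value was 0.0179 where only probe sets with a mean of at least 6 were tested and 0.00921 with an intensity trend and robust estimation. It was 0.154 with only the arrays compared and 0.0754 with the replicate number as a fixed block, and with any 1 array left out it lay between 0.0672 and 0.320. Without WT donor 1 the log2 fold change was -0.89 (limma, adjusted p = 0.177).

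*Hspa5* encodes BiP, the chief HSP70 chaperone of the ER and the protein that holds the sensors inactive. It had 12.18 and 12.12 in *miR-155*-/-(LPS), against 12.35 and 12.28 in WT(LPS). Although the groups did not overlap, the difference of -0.16 (95% interval -0.47 to 0.14) did not pass the test (limma, adjusted p = 0.643). *Hsp90b1*, the HSP90 of the ER (GRP94), had 11.10 and 11.09 in *miR-155*-/-(LPS), against 11.62 and 11.42 in WT(LPS). This difference of -0.42 ± 0.14 (SE) had an adjusted p of 0.248 from limma. The second probe set of *Hsp90b1* gave -0.62 (limma, adjusted p = 0.149). *Herpud1*, which serves ER-associated degradation, had 8.38 and 8.58 in *miR-155*-/-(LPS), against 9.16 and 8.81 in WT(LPS). At -0.50 ± 0.18 (SE) it had an adjusted p of 0.280 from limma. *Dnajb9*, whose product ERdj4 is a J-domain cochaperone, had 10.26 and 10.20 in *miR-155*-/-(LPS), against 10.51 and 10.48 in WT(LPS). Its difference of -0.26 likewise did not pass the test (limma, adjusted p = 0.455).

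The transcription factors did not share one direction. *Ddit3*, whose product CHOP promotes death under lasting ER stress, had 9.21 and 8.62 in *miR-155*-/-(LPS), against 8.38 and 8.17 in WT(LPS). The arrays did not overlap, yet the 2 knockout donors were further apart from each other than the lower of them was from WT. Its log2 fold change of 0.64 ± 0.22 (SE) had an adjusted p of 0.261 from limma. A dim second probe set of *Ddit3*, with a mean of 4.99, gave -0.37. *Atf4*, the factor upstream of *Ddit3*, had 11.92 and 11.90 in *miR-155*-/-(LPS), against 11.77 and 11.71 in WT(LPS). The difference was 0.17 (95% interval -0.12 to 0.45), and 2 further probe sets gave -0.08 and -0.03. *Xbp1*, the target of IRE1, had 9.86 and 9.82 in *miR-155*-/-(LPS), against 9.93 and 9.89 in WT(LPS). Its 4 probe sets gave differences of -0.35 to -0.07, and none passed the test. *Atf6*, the sensor that is itself a transcription factor, was the one member whose arrays overlapped, with 9.30 and 9.51 in *miR-155*-/-(LPS), against 9.23 and 9.32 in WT(LPS). Its probe sets disagreed: the brightest gave 0.13 and the second -0.62, so that no direction can be given for *Atf6*.

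Over the 10 members in this comparison, 1 was called lower and 0 higher, where 0.513% of all probe sets tested were called lower. Both knockout arrays lay below both WT arrays for 7 members and above them for 2, where the same held for 21.3% and 25.3% of all probe sets. The median log2 fold change was -0.21 over the members and 0.02 over all probe sets tested. Without WT donor 1 the median over the members was -0.19.

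**Figure D2:**
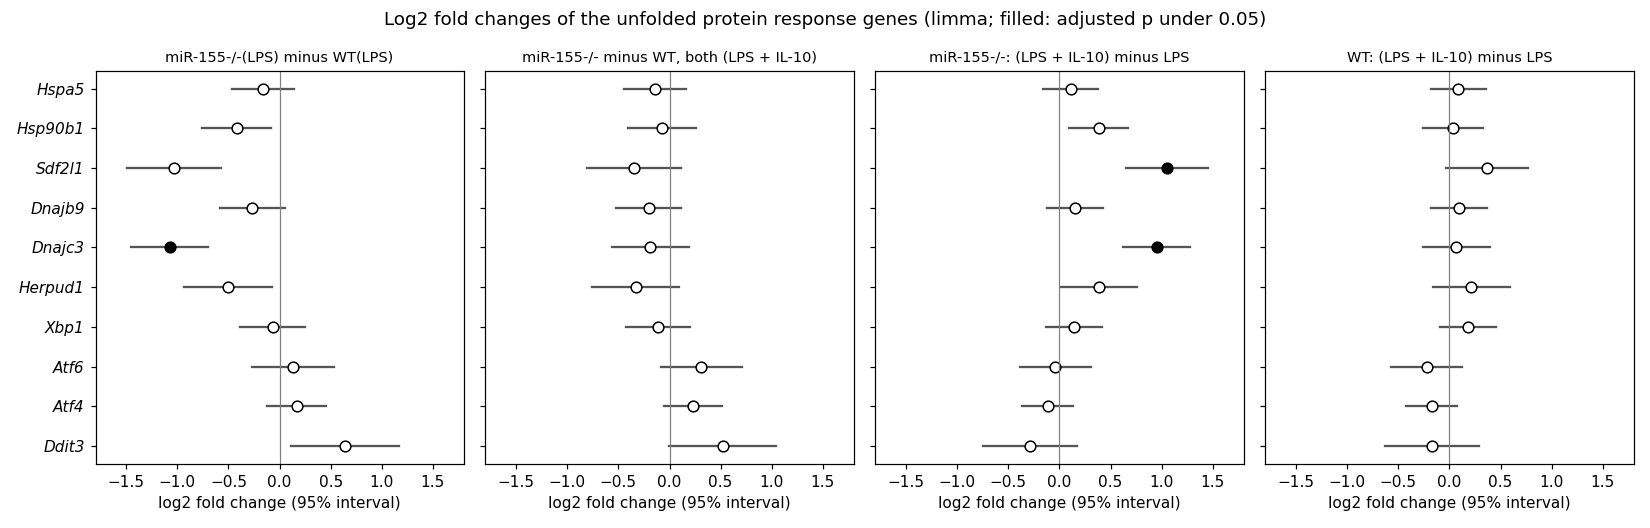
Log2 fold changes (x axis) of the 10 genes with 95% intervals from limma, in 4 comparisons. Filled points passed an adjusted p of 0.05: *Dnajc3* in *miR-155*-/-(LPS) minus WT(LPS), at -1.08, and *Sdf2l1* and *Dnajc3* in *miR-155*-/-(LPS + IL-10) minus *miR-155*-/-(LPS), at 1.05 and 0.95.

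IL-10 raised *Sdf2l1* and *Dnajc3* in *miR-155*-/- BMDM, the comparison that asks what IL-10 does in macrophages without miR-155. *Sdf2l1* had 9.46 and 9.55 in *miR-155*-/-(LPS + IL-10), against 8.27 and 8.63 in *miR-155*-/-(LPS). The difference was 1.19 in donor 1 and 0.92 in donor 2. The log2 fold change of 1.05 ± 0.17 (SE) was 2.08-fold, with an adjusted p of 0.0283 from limma. *Dnajc3* had 10.76 and 10.96 in *miR-155*-/-(LPS + IL-10), against 9.76 and 10.05 in *miR-155*-/-(LPS). Here the differences of donor 1 and donor 2 were 1.00 and 0.91, and every knockout array with IL-10 lay above every array without. The log2 fold change of 0.95 ± 0.14 (SE) was 1.94-fold, with an adjusted p of 0.0199 from limma. All 5 probe sets of *Dnajc3* were higher, by 0.36 to 1.03, and 3 of the 5 passed the test.

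Both calls depended on the pairing of arrays by donor. Without the replicate block the adjusted p from limma was 0.0612 for *Sdf2l1* and 0.0591 for *Dnajc3*, and with the donor as a fixed block it was 0.0339 and 0.0168. With both arrays of WT donor 1 left out they were 0.0249 and 0.0294. Leaving out any 1 of the 4 knockout arrays ended both calls, with adjusted p from limma up to 0.211 for *Sdf2l1* and 0.165 for *Dnajc3*.

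The other 8 members were not called in *miR-155*-/- BMDM. *Hsp90b1* had 11.40 and 11.56 in *miR-155*-/-(LPS + IL-10), against 11.10 and 11.09 in *miR-155*-/-(LPS), a difference of 0.38 ± 0.12 (SE; limma, adjusted p = 0.176). The second probe set of *Hsp90b1* gave 0.71 (limma, adjusted p = 0.0543). *Herpud1* had 8.81 and 8.93 in *miR-155*-/-(LPS + IL-10), against 8.38 and 8.58 in *miR-155*-/-(LPS), a difference of 0.39 ± 0.16 (SE; limma, adjusted p = 0.273). In both genes the groups did not overlap. For *Dnajb9*, *Xbp1* and *Hspa5* the differences were 0.15, 0.14 and 0.11. The 4 probe sets of *Xbp1* gave 0.10 to 0.40, and none passed the test. The pair *Atf4* and *Ddit3* ran the other way by their brightest probe sets, at -0.11 and -0.29, but all 3 of their further probe sets gave positive values. *Ddit3* had 8.85 and 8.41 in *miR-155*-/-(LPS + IL-10), against 9.21 and 8.62 in *miR-155*-/-(LPS), so that its arrays overlapped although both donors had the lower value with IL-10. For *Atf6* the brightest probe set gave -0.04 and the second 0.63.

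Of the 10 members, 2 were called higher and 0 lower, where 1.26% of all probe sets tested were called higher. The IL-10 arrays lay above the LPS arrays for 7 members and below them for 1, where the same held for 24.5% and 23.4% of all probe sets. The median log2 fold change was 0.15 over the members and 0.01 over all probe sets. This comparison and that of *miR-155*-/-(LPS) with WT(LPS) share the 2 *miR-155*-/-(LPS) arrays, which held the lowest value of 7 members and the highest of the other 3, so that opposite signs in them are not independent.

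Several measures of the samples moved with these results. Of 8 neutrophil markers, *S100a8* was called higher in *miR-155*-/-(LPS + IL-10) compared with *miR-155*-/-(LPS), and *S100a8*, *S100a9*, *Mmp8* and *Mmp9* were called lower in *miR-155*-/-(LPS) compared with WT(LPS). The markers did not move together with IL-10 in *miR-155*-/- BMDM, where 3 of the 8 had positive and 5 negative log2 fold changes, with a median of -0.17. Their summed linear signal was 6265 and 7651 in *miR-155*-/-(LPS + IL-10), then 2568 and 3309 in *miR-155*-/-(LPS), then 14079 and 13921 in WT(LPS + IL-10) and lastly 11205 and 10982 in WT(LPS). The granule genes *Elane*, *Mpo* and *Ltf* stayed below the median of every array. *Camp*, of the same list, lay above these medians, with 6.30 and 5.82 in *miR-155*-/-(LPS), against 5.78 and 5.07 in WT(LPS). Of 11 stromal markers, *Lum* was called higher in *miR-155*-/-(LPS), with 4.91 and 5.63, against 2.63 and 2.77 in WT(LPS). The other 10 had negative log2 fold changes there, and 0 were called lower. The 7 markers of B and plasma cells summed to 3514 and 3194 in *miR-155*-/-(LPS + IL-10), then 5326 and 5856 in *miR-155*-/-(LPS), then 2791 and 2084 in WT(LPS + IL-10) and lastly 3865 and 3552 in WT(LPS), nearly all of it from *Sdc1*. The control probe sets of *Gapdh* differed between the 3′ and the 5′ end by 0.51 and 0.49 in *miR-155*-/-(LPS + IL-10), then 0.71 and 0.57 in *miR-155*-/-(LPS), then 0.52 and 0.48 in WT(LPS + IL-10) and lastly 0.50 and 0.57 in WT(LPS). This difference, a sign of RNA integrity and amplification, was thus highest on *miR-155*-/-(LPS) replicate 1, at 0.71. At 0.57, *miR-155*-/-(LPS) replicate 2 was about level with WT(LPS) replicate 2. Those of beta-actin differed by 0.71 and 0.76 in *miR-155*-/-(LPS + IL-10), then 0.83 and 1.04 in *miR-155*-/-(LPS), then 0.84 and 0.82 in WT(LPS + IL-10) and lastly 0.69 and 0.99 in WT(LPS). The part of these measures in the results was not tested.

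In WT BMDM, 0 of the 10 members passed the test between LPS + IL-10 and LPS, where 0.0311% of all probe sets tested were called in either direction by limma, and 0 members had an unadjusted p under 0.05, against 9.27% of all probe sets. The largest difference was again that of *Sdf2l1*, with 9.71 and 9.99 in WT(LPS + IL-10), against 9.63 and 9.33 in WT(LPS). The difference was 0.08 in donor 1 and 0.65 in donor 2, and the log2 fold change was 0.37 (95% interval -0.03 to 0.77; limma, adjusted p = 0.560). *Dnajc3* had 11.13 and 10.97 in WT(LPS + IL-10), against 11.10 and 10.87 in WT(LPS), and its arrays overlapped. Its log2 fold change of 0.07 had a 95% interval of -0.26 to 0.39. Among the others the brightest probe sets gave between -0.22 for *Atf6* and 0.21 for *Herpud1*, and the median over the members was 0.08.

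Whether IL-10 acted differently in the 2 genotypes was tested directly. This called 0 of the 10 members, where 0.0333% of all probe sets were called, and 2 members had an unadjusted p under 0.05, as did 10.4% of all probe sets. For *Dnajc3* the effect was 0.89 log2 units larger in *miR-155*-/- than in WT BMDM (limma, adjusted p = 0.289). For *Sdf2l1* it was 0.69 larger (limma, adjusted p = 0.427), and 0.40 larger without WT donor 1. By donor, the IL-10 differences of both knockout donors lay above those of both WT donors for *Hsp90b1*, *Sdf2l1* and *Dnajc3*, and below them for *Ddit3*. Over all probe sets tested, 22.1% lay above and 21.1% below in this way.

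**Figure D3:**
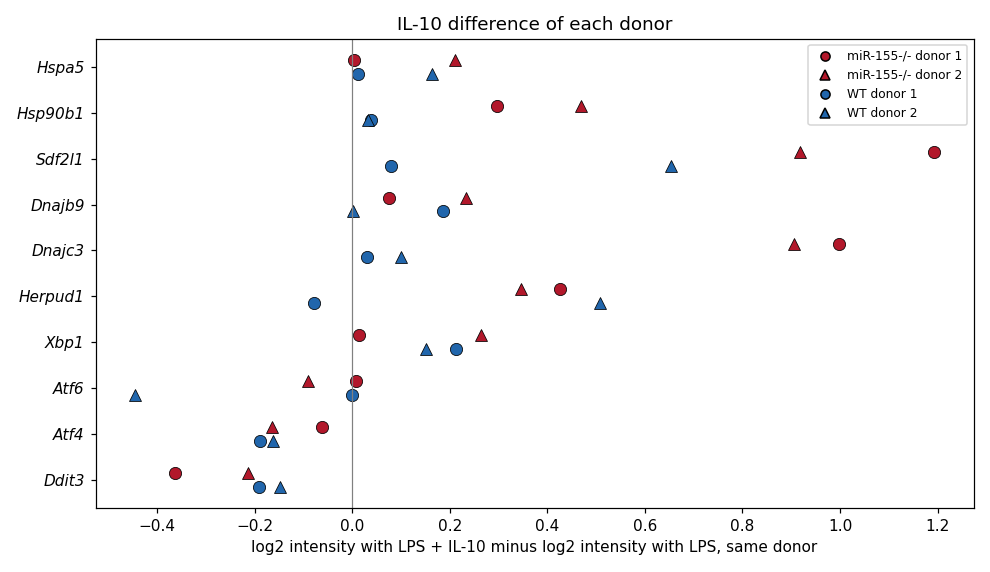
Log2 intensity with LPS + IL-10 minus log2 intensity with LPS of the same donor (x axis) for the 10 genes, in red for *miR-155*-/- and in blue for WT donors. *Sdf2l1* had 1.19 and 0.92 in the knockout donors, against 0.08 and 0.65 in the WT donors, and *Dnajc3* had 1.00 and 0.91 in the knockout donors, against 0.03 and 0.10 in the WT donors.

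Averaged over both genotypes, *Sdf2l1* and *Dnajc3* passed the test as well. *Sdf2l1* was higher by 0.71 ± 0.12 (SE; limma, adjusted p = 0.0317) and *Dnajc3* by 0.51 ± 0.10 (SE; limma, adjusted p = 0.0492), and these 2 of 10 were called where 1.16% of all probe sets tested were called higher. Without WT donor 1 *Sdf2l1* kept its call (limma, adjusted p = 0.0351) and *Dnajc3* did not (limma, adjusted p = 0.0836), and without the replicate block neither was called. With any 1 array left out the adjusted p from limma lay between 0.0495 and 0.145 for *Sdf2l1* and between 0.0921 and 0.221 for *Dnajc3*. By the brightest probe sets, IL-10 arrays were higher than LPS arrays in all 4 donors for 6 of the 10 members and lower in all 4 for *Atf4* and *Ddit3*. Among all probe sets tested the shares were 10.6% and 11.1%.

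With IL-10 present, no member passed the test between the genotypes. In *miR-155*-/-(LPS + IL-10) compared with WT(LPS + IL-10), 0 of the 10 members were called by limma, where 0.0711% of all probe sets were called in either direction, and 0 had an unadjusted p under 0.05, against 8.94% of all probe sets. *Dnajc3* had 10.76 and 10.96 in *miR-155*-/-(LPS + IL-10), against 11.13 and 10.97 in WT(LPS + IL-10). Its difference was -0.19 (95% interval -0.56 to 0.19), where it was -1.08 under LPS alone. *Sdf2l1* had 9.46 and 9.55 in *miR-155*-/-(LPS + IL-10), against 9.71 and 9.99 in WT(LPS + IL-10), a difference of -0.35 (95% interval -0.81 to 0.11). *Ddit3* had 8.85 and 8.41 in *miR-155*-/-(LPS + IL-10), against 8.19 and 8.02 in WT(LPS + IL-10). Its difference was 0.52 (95% interval -0.0026 to 1.04), where it was 0.64 under LPS alone. The median over the members was -0.13. Averaged over both stimulations, knockout against WT called 0 of 10 members, where 1.17% of all probe sets were called in either direction, and 4 had an unadjusted p under 0.05, against 12.2% of all probe sets. *Dnajc3* stood at -0.63 (limma, adjusted p = 0.0757) and *Sdf2l1* at -0.69 (limma, adjusted p = 0.103).

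A further 44 genes of the pathway, listed by role, were measured on the same arrays. In *miR-155*-/-(LPS) compared with WT(LPS), 0 of the 44 were called by limma, where 428 of the 45014 probe sets were called higher and 231 lower. Of the 44, 7 with positive and 10 with negative log2 fold changes had an unadjusted p below 0.05, against 13.8% of all probe sets in either direction. The median log2 fold change was -0.46 for 7 disulphide bond enzymes, -0.22 for 9 chaperones and cochaperones, -0.26 for 4 genes of translocation and transport, -0.04 for 11 of ER-associated degradation, 0.10 for 3 sensors and 0.73 for 10 targets of ATF4 and CHOP. Over all probe sets tested the median was 0.02. Of the ATF4 and CHOP targets 9 of 10 had positive values, and of the disulphide bond enzymes 6 of 7 negative ones. Genes named from the list were those called in any comparison and those with the largest differences in either direction.

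*Pdia4*, a disulphide isomerase of the ER (ERp72), had 6.60 and 7.24 in *miR-155*-/-(LPS), against 8.32 and 8.02 in WT(LPS), a log2 fold change of -1.25 ± 0.22 (SE; limma, adjusted p = 0.0509). With IL-10 it had 8.01 and 8.27 in *miR-155*-/-(LPS + IL-10), against those 6.60 and 7.24 in *miR-155*-/-(LPS). That rise of 1.22 ± 0.19 (SE) passed the test (limma, adjusted p = 0.0268). *Txndc5*, a thioredoxin-domain isomerase of the ER, had 7.40 and 7.43 in *miR-155*-/-(LPS), against 8.51 and 7.93 in WT(LPS). It had 8.23 and 8.27 in *miR-155*-/-(LPS + IL-10), and its difference between these and *miR-155*-/-(LPS) was 0.83 (limma, adjusted p = 0.0564).

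**Figure D4:**
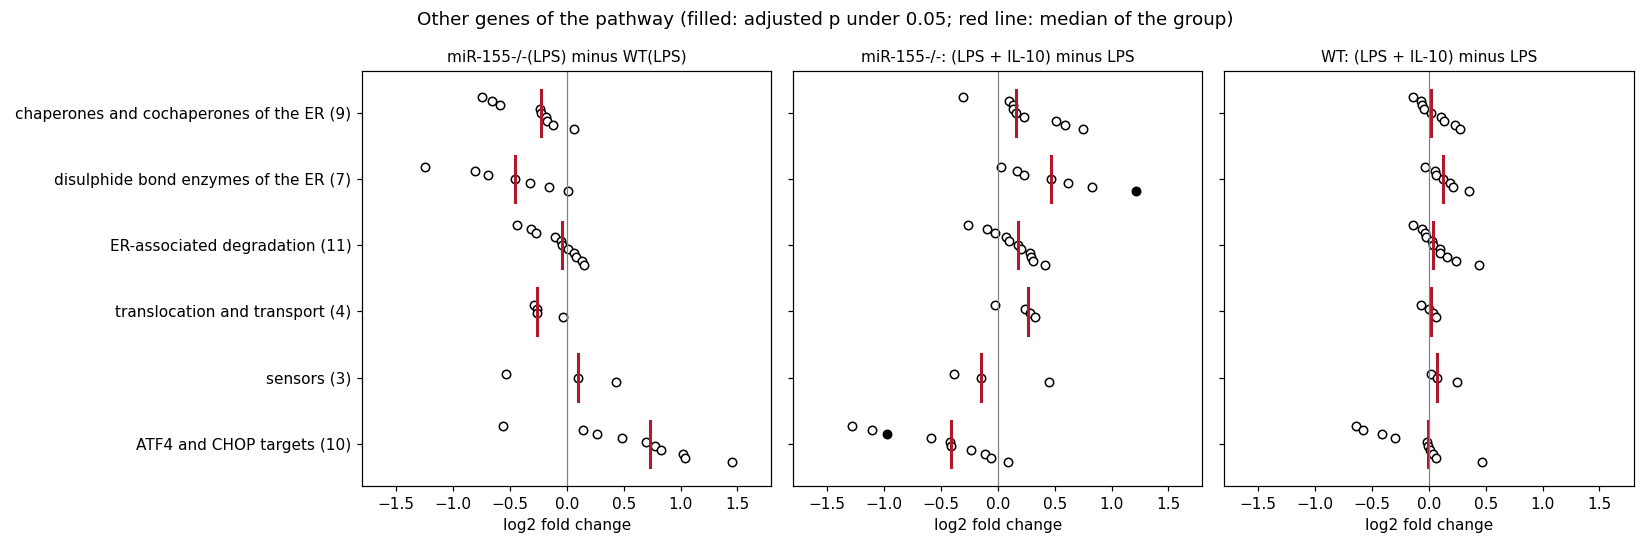
Log2 fold changes (x axis) of 44 other pathway genes by role, one point a gene, with the median of each role as a red line, in 3 comparisons. Filled points passed an adjusted p of 0.05: *Pdia4* at 1.22 and *Asns* at -0.98, both for IL-10 in *miR-155*-/- BMDM. In *miR-155*-/-(LPS) minus WT(LPS) the disulphide bond enzymes had a median of -0.46 and the ATF4 and CHOP targets one of 0.73.

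Most targets of ATF4 and CHOP had values of the opposite sign. *Asns*, asparagine synthetase, had 10.08 and 9.85 in *miR-155*-/-(LPS + IL-10), against 11.10 and 10.80 in *miR-155*-/-(LPS). IL-10 lowered it there by a log2 fold change of -0.98 ± 0.19 (SE; limma, adjusted p = 0.0462), and no array overlapped. In WT BMDM it had 9.37 and 9.71 in WT(LPS + IL-10), against 9.90 and 10.45 in WT(LPS), a difference of -0.64 (limma, adjusted p = 0.392). Averaged over both genotypes the value was -0.81 (limma, adjusted p = 0.0284), while *Pdia4* stood at 0.71 (limma, adjusted p = 0.0472). These were the 2 of 44 called in each of these comparisons, 1 higher and 1 lower, and 0 were called without the replicate block. Of all 45014 probe sets tested, 568 were called higher and 638 lower for IL-10 in *miR-155*-/- BMDM. Over both genotypes 523 were called higher and 641 lower. For IL-10 in *miR-155*-/- BMDM, any 1 array left out gave adjusted p from limma between 0.0404 and 0.156 for *Pdia4* and between 0.0534 and 0.273 for *Asns*. Averaged over both genotypes these were 0.0405 to 0.216 for *Pdia4* and 0.039 to 0.123 for *Asns*, and without WT donor 1 they were 0.0845 for *Pdia4* and 0.0337 for *Asns*.

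*Trib3*, a pseudokinase induced by ATF4 and CHOP, had 7.38 and 6.87 in *miR-155*-/-(LPS), against 5.75 and 5.61 in WT(LPS), a difference of 1.45 (limma, adjusted p = 0.123). *Ppp1r15a*, whose product GADD34 brings a phosphatase to eIF2α, had 7.23 and 6.68 in *miR-155*-/-(LPS), against 5.89 and 5.96 in WT(LPS), a difference of 1.04 (limma, adjusted p = 0.0723). Neither pair of groups overlapped, and neither gene passed the test. With IL-10, *Trib3* had 6.61 and 5.43 in *miR-155*-/-(LPS + IL-10), a difference of -1.11 to *miR-155*-/-(LPS), and *Chac1*, a glutathione-degrading enzyme, had 5.36 and 4.57 in *miR-155*-/-(LPS + IL-10), against 6.54 and 5.96 in *miR-155*-/-(LPS), a difference of -1.28 (limma, adjusted p = 0.293). In WT BMDM *Ppp1r15a* had 6.21 and 6.56 in WT(LPS + IL-10), against 5.89 and 5.96 in WT(LPS), a difference of 0.46 that did not pass the test (limma, adjusted p = 0.512). *Edem2*, a gene of ER-associated degradation, had the next largest value there, at 0.44 (limma, adjusted p = 0.573).

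**Figure D5:**
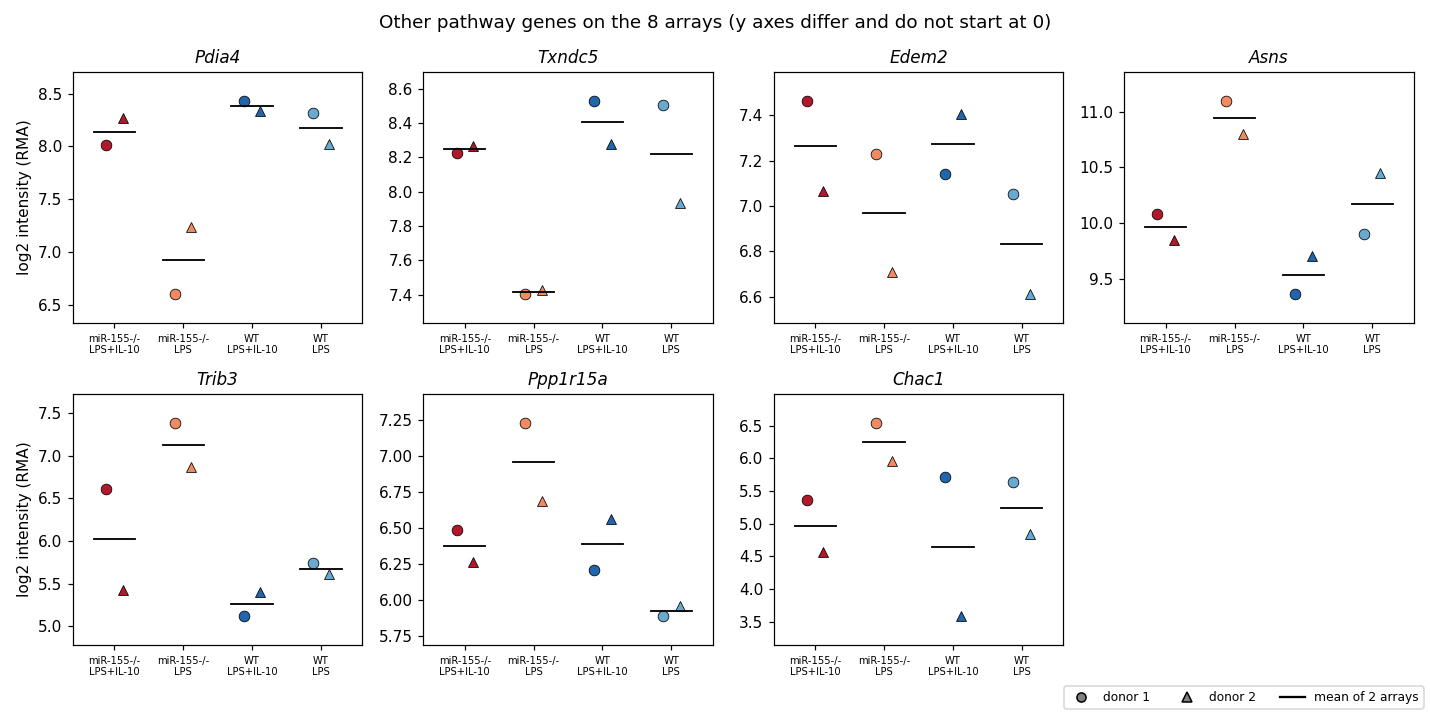
Log2 intensity (y axis, RMA) of 7 other pathway genes on the 8 arrays, laid out as for the 10 members. *Pdia4* and *Txndc5* had their 2 lowest values in *miR-155*-/-(LPS), and *Asns*, *Trib3* and *Ppp1r15a* their 2 highest.

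Under IL-10 in *miR-155*-/- BMDM the median log2 fold change was 0.47 for disulphide bond enzymes, 0.16 for chaperones, 0.26 for translocation and transport, 0.18 for degradation, -0.15 for sensors and -0.42 for ATF4 and CHOP targets, and 0.01 over all probe sets. These medians rest on the same *miR-155*-/-(LPS) arrays as those against WT(LPS). In WT BMDM the medians of the same groups lay between -0.01 and 0.12, with 0 of 44 called and 3 at an unadjusted p under 0.05, against 9.27% of all probe sets. Of the 7 other genes with an ERSE, *Creld2* and *Pdia6* had log2 fold changes of -0.75 and -0.69 between *miR-155*-/-(LPS) and WT(LPS), *Ero1b* -0.32, *Canx* -0.19, *Calr* -0.13, *Syvn1* -0.05 and *Derl3* 0.15, the last on a probe set below the array medians. None of these 7 was called. Of the 3 members with an ERSE, *Dnajc3* stood at -1.08 and was called, *Hsp90b1* at -0.42 and *Hspa5* at -0.16.

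By correlation over the 8 arrays among 8485 genes, those most like *Hspa5* were *Sf1* (Pearson r = 0.961), *Mfsd14a* (0.957), *Sar1a* (0.954), *Hnrnph2* (0.950) and *4833420G17Rik* (0.949). Those most like *Ddit3* were *Slc30a6* (0.985), *Cdc42ep2* (0.955), *Mrpl45* (0.947), *Mpv17l2* (0.946) and *Sars* (0.945), the last a seryl-tRNA synthetase. The arrays of a donor share cells and the groups share treatments, so that these values are a description only.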

How the data were processed

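RNA of BMDM was amplified and labelled with NuGEN kits and hybridised to Affymetrix mouse genome arrays, 2 in each of 4 groups. The deposited values are log2 intensities, 1 a probe set, that the authors made with RMA in affy, with background correction and quantile normalisation. The authors used limma, with versions of affy, RMA and limma not given in the sources used here. RMA shrinks differences of dim probe sets, and quantile normalisation gives all arrays one distribution, so that only relative changes are read. The number of arrays limits the precision.

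Of 45101 probe sets, 34958 had 1 symbol, 932 several and 9211 none in the array annotation. Left out were 64 controls and 23 probe sets of Y-linked genes and *Xist*, and 45014 were tested. Each gene was read by its brightest probe set among those with 1 symbol. Under R 4.3.3, lmFit and eBayes of limma 3.58.1 (with statmod 1.5.0) were applied to group means of all 8 arrays, with the donor as a random block (duplicateCorrelation, 0.24). Benjamini-Hochberg adjustment covered the 45014 probe sets, and an adjusted p under 0.05 was called. The labels' genotype and replicate number name the donor, since each animal gave both its arrays. Deviations from the group means correlated within a donor at r = 0.654 in WT and 0.547 in *miR-155*-/- arrays over 15434 probe sets. The code was tested on simulated data.

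The alternatives were no block, donor or replicate number as a fixed block, only the arrays compared, an intensity trend with robust estimation, a mean of 6 or more, median-centred arrays, a second quantile normalisation, each array left out, and other or averaged probe sets of a member. The other pathway genes were read by their brightest probe set alone, and their further probe sets were not checked. Leaving out WT donor 1, and a fixed block where only 4 arrays of a genotype were compared, were added after the data were seen. Other pathway genes were named if called in any comparison, or if among the 2 largest differences in either direction, without overlap of arrays, for IL-10 in either genotype or for *miR-155*-/-(LPS) against WT(LPS). The members and lists were chosen with earlier results of these data known. Protein sequences were not used here. Python 3.11.15 with matplotlib 3.10.9 drew the figures.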

Additional observations from a re-analysis of the deposited data

How the results depend on the processing

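Counts of called genes moved with the fit more than fold changes did. Of the 10 members, IL-10 in *miR-155*-/- BMDM called 2, but 0 without the replicate block, and averaged over genotypes also 2, but 0 without the block and 1 without WT donor 1 or with probe sets averaged. *miR-155*-/-(LPS) against WT(LPS) called 1, but 0 with the replicate number as a block, with only the arrays compared, without WT donor 1 or with probe sets averaged, and 2 among probe sets with a mean of at least 6 or with an intensity trend. These 2 settings also called 2 for the genotypes averaged over stimulations, where the count was 0. With 1 array left out the members called were 0 to 2 for IL-10 in *miR-155*-/- BMDM, 0 to 1 for IL-10 over both genotypes and 0 for *miR-155*-/-(LPS) against WT(LPS), and the lone array of a group was assumed to vary like the others.

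Of the 44 other genes, IL-10 in *miR-155*-/- BMDM called 2, but 0 without the block, 4 with median-centred arrays, without WT donor 1 or with only the arrays compared and a fixed block, 5 with the donor as a fixed block, 7 with the trend and 13 at a mean of at least 6. Over both genotypes the count of 2 became 0 without the block, 4 with the trend and 11 at a mean of at least 6. For *miR-155*-/-(LPS) against WT(LPS) 0 became 7 with the trend and 9 at a mean of at least 6, and for the genotypes averaged 0 became 2 without the block and 3 under either. With 1 array left out, 0 to 1 were called for IL-10 in *miR-155*-/- BMDM and over both genotypes. Fewer probe sets were tested at a mean of at least 6, while the trend setting tested as many as the main fit. The share of all probe sets called under each alternative setting is not given here. The changes in counts, of members and of other genes, are therefore not read as results about the pathway. The causes of these changes in counts were not tested.

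Signs turned mainly with the probe set. For *Atf6* probe set 2 by brightness gave 0.38 for IL-10 in WT, 0.63 for IL-10 in *miR-155*-/-, -0.62 for *miR-155*-/- against WT under LPS and -0.37 under LPS + IL-10, and the mean over probe sets gave 0.0162, 0.19 and -0.15 in the first 3. For *Atf4* in the same order probe set 2 gave 0.0473, 0.20 and -0.0784, probe set 3 gave 0.0344, 0.051, -0.0262 and -0.0097, and the mean gave 0.0451 for IL-10 in *miR-155*-/-. *Ddit3* gave 0.25 for IL-10 in *miR-155*-/- and -0.37 under LPS with probe set 2, *Hspa5* 0.091 under LPS and *Dnajc3* 0.0073 under LPS + IL-10 with probe set 3. *Hsp90b1* gave 0.0287 under LPS + IL-10 without WT donor 1.

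With 1 array left out, small differences turned. For IL-10 in WT, *Hsp90b1* ran between -0.0483 and 0.1196, *Dnajb9* between -0.011 and 0.199 and *Dnajc3* between -0.0323 and 0.1625. For IL-10 in *miR-155*-/- BMDM, *Atf6* ran between -0.1329 and 0.0513. Under LPS + IL-10, *Hsp90b1* ran between -0.1585 and 0.0094 and *Xbp1* between -0.2236 and 0.0002.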

Other observations

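The sensors of the response, chosen here after their values were seen, differed in sign. *Eif2ak3*, which encodes PERK, had 8.06 and 7.95 in *miR-155*-/-(LPS), against 8.52 and 8.55 in WT(LPS), a difference of -0.53 (limma, adjusted p = 0.174). *Ern1*, which encodes IRE1α, had 9.47 and 9.31 in *miR-155*-/-(LPS), against 8.88 and 9.02 in WT(LPS), a difference of 0.43 (limma, adjusted p = 0.271). In neither gene did the groups overlap, and neither passed the test. With IL-10 the differences from *miR-155*-/-(LPS) in *miR-155*-/- BMDM were 0.45 for *Eif2ak3* (limma, adjusted p = 0.139) and -0.39 for *Ern1* (limma, adjusted p = 0.203).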
